A study of Arabidopsis thaliana with 12 samples.

Results

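The subject is the interaction of the jazQ and mycT mutations in Arabidopsis thaliana seedlings: for every gene, the log2 change from mycT to jazQ mycT minus the log2 change from Col-0 to jazQ. A value of 0 means that the double-mutant level is the sum of the single effects on the log2 scale, a positive value that it lies above that sum, and a negative value that it lies below. All 12 libraries of the series enter this contrast. Of 33602 annotated genes in the table, 20888 passed the filter on low counts, and 121 of them (0.579%) departed from the sum at an adjusted p under 0.05. The departure was positive for 98 genes (0.469%) and negative for 23 (0.11%).

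Col-0 is the wild type and the background of all lines. The jazQ line carries jaz1-2, jaz3-4, jaz4-1, jaz9-4 and jaz10-1, so that 5 JAZ genes are mutated. The mycT line carries myc2-1, myc3-1 and myc4-1, so that 3 MYC genes are mutated, and jazQ mycT carries all 8 mutations. Seedlings of every genotype were grown for 8 d in continuous light on solid medium with sucrose and no added jasmonate, and each of 3 samples per genotype was a pool of about 200 whole seedlings. Each mutant genotype is 1 line, and the label names no tissue beyond the whole plant, so fewer cells of a type and less RNA per cell cannot be told apart. The Col-0 and jazQ libraries came from an earlier study that was run in parallel with the mycT and jazQ mycT libraries. The contrast takes 1 difference within each of these pairs.

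JAZ proteins are repressors that bind transcription factors, among them the basic helix-loop-helix factors MYC2, MYC3 and MYC4. The hormone jasmonoyl-isoleucine brings JAZ proteins to the COI1 receptor complex, which leads to their destruction and frees the bound factors. MYC2, MYC3 and MYC4 are known as activators of the genes for glucosinolates, the sulfur-rich defense compounds of the cabbage family, and of many wound-response genes.

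Library totals ranged from 12336090 to 26347184 expected counts. The share of genes annotated as ribosomal RNA stood at 10.8% in jazQ mycT replicate 1 and 5.04% in mycT replicate 1, against 0.723% to 2.08% in the other libraries. Summed over the root markers, levels were 142 to 164 TPM (the deposited level, scaled to gene length and library) in jazQ mycT and 158 to 183 TPM in the other libraries, and over the shoot markers 181 to 219 TPM and 206 to 244 TPM. Both lowest sums were those of jazQ mycT replicate 1. Its replicates 2 and 3 stood at 160 and 164 TPM for the root and 219 and 215 TPM for the shoot markers. None of the 15 tested root markers or 15 tested shoot markers had a called departure. In the pairwise comparisons, 3 shoot markers were called lower in jazQ mycT than in Col-0 (2.68% of genes tested were), 3 lower than in mycT (3.77%) and 1 lower in jazQ than in Col-0 (1.11%), and 1 root marker was called lower in jazQ mycT than in mycT. In Col-0 replicate 3, the 8 called genes of amino acid and glucosinolate synthesis described below stood at 0.497 to 0.835 times the mean of the other Col-0 libraries. The part of these library differences in the results was not tested. Results without a library are given for some genes only, so a gene without them may lose its call when 1 library is left out.

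Of the 8 mutated genes, JAZ3 alone had a called departure (edgeR). JAZ1 stood at 44.2 to 60.0 TPM in Col-0, 4.65 to 6.05 in jazQ, 32.3 to 46.5 in mycT and 4.25 to 5.34 in jazQ mycT. JAZ10 rose from 4.23 to 5.10 TPM in Col-0 to 288 to 337 in jazQ and 320 to 347 in jazQ mycT. Counts sum the whole gene, so RNA that reads through or starts at an insertion is counted with the rest. MYC2, MYC3, MYC4, JAZ4 and JAZ9 had departures between -0.13 and 0.41, and none of these 5 was called.

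The positive calls were concentrated at 1 end of 1 chromosome. Of the 98 genes, 76 lay on chromosome 2, and 73 of these lay in a contiguous block from its first tested gene, AT2G01008, to AT2G04040 (base 1025 to base 1336550 of chromosome 2 in TAIR10.1). The block holds 369 annotated genes, of which 214 were tested, 1.02% of all genes tested. The 214 include genes annotated as ribosomal RNA, which are left out of the shares and median ratios per library below. Its border was set after the values were seen, so that the figures for the block are a description with no test. None of the 8 mutated genes is on chromosome 2. Since jazQ mycT is 1 line, a property of that line and an effect of the combined mutations cannot be told apart. This holds for genes inside and outside the block.

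In jazQ mycT the block as a whole stood about 1.46 times as high as the sum of the single effects, with a median departure of 0.55 and quartiles of 0.40 and 0.70. The departure was above 0 for 208 of the 214 tested genes. Of the 6 others, 4 stayed under 5 TPM in every genotype. In 164 block genes the mean reached 5 TPM in all 4 genotypes, and all 164 were above 0. By comparison, the 212 tested genes that follow the border had a median of 0.02 with none called, and the 20674 genes outside the block had a median of -0.0034 and 0.121% positive calls, against 34.1% in the block.

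**Figure D1:**
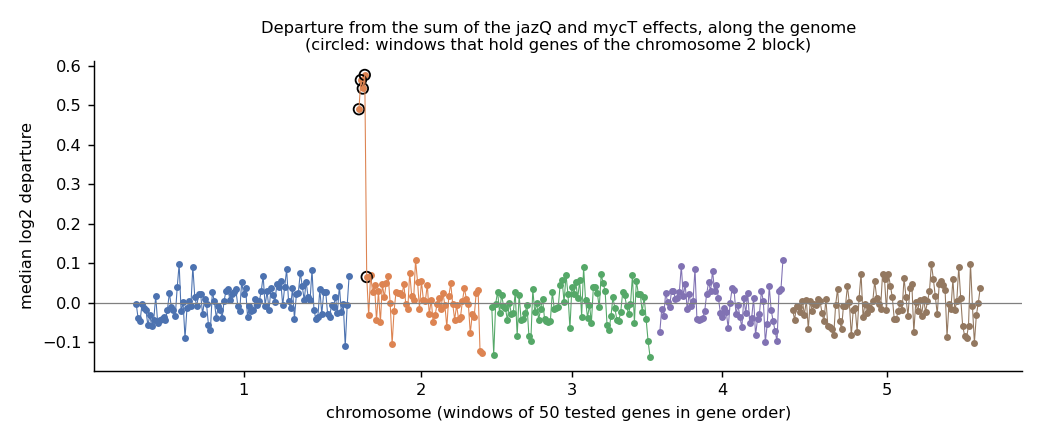
Median log2 departure from the sum of the single effects (y axis) in windows of 50 tested genes in gene order along chromosomes 1 to 5 (x axis), with the last window of a chromosome holding fewer genes. The 4 full windows inside the block lie between 0.49 and 0.58, while the 407 full windows with no block gene lie between -0.13 and 0.11.

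The shift was present in every jazQ mycT library and in no other. Leaving out ribosomal RNA, the block took 1.2%, 1.14% and 1.13% of nuclear counts in jazQ mycT replicates 1, 2 and 3. It took 0.750% to 0.785% in the 9 libraries of Col-0, jazQ and mycT. The groups did not overlap, and the mean was 1.16% ± 0.0412 (SD, n = 3) in jazQ mycT against 0.783% ± 0.00196 in Col-0, 0.766% ± 0.00855 in jazQ and 0.766% ± 0.0164 in mycT. The median log2 ratio of the block genes to the Col-0 mean was 0.52 to 0.55 in the jazQ mycT libraries and -0.024 to 0.029 in the others. In the same libraries the genes just past the border stood at -0.0076 to 0.013 and -0.066 to 0.033.

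Each pairwise comparison with the double mutant carried the block. Its median was 0.54 for jazQ mycT against Col-0, 0.56 against mycT and 0.53 against jazQ. It was 0.0012 for jazQ against Col-0 and -0.028 for mycT against Col-0. These comparisons share libraries and are set side by side as values. Of the 278 genes called higher in jazQ mycT than in jazQ (1.33% of those tested), 136 lay in the block, which is 48.9% of them. Of the 586 genes called higher than in Col-0 (2.81%), 144 lay there, and of the 847 called higher than in mycT (4.05%), 150.

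The size of the shift varied little with the expression level. In 4 groups of block genes ranked by mean TPM, the median departure was 0.61 in the lowest, then 0.55, 0.54 and 0.54 in the highest. The count of calls rose with level, from 3 of 54 genes in the lowest group through 12 and 25 to 33 of 54 in the highest. Leaving out any 1 library kept the block median between 0.53 and 0.56.

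**Figure D2:**
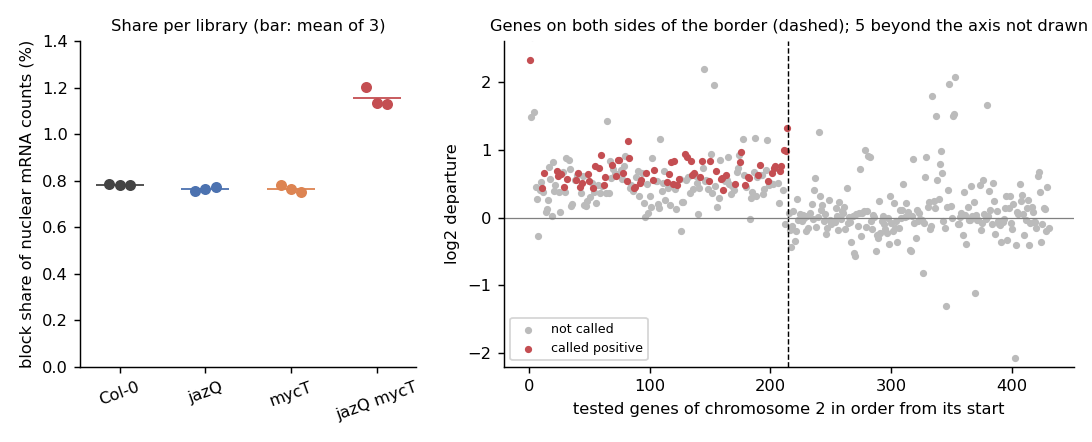
Left, share of nuclear messenger RNA counts taken by the block in each library (points, in percent) with the mean of 3 (bar). Right, log2 departure of single tested genes in order from the start of chromosome 2, with the border of the block dashed. The 3 jazQ mycT libraries lie at 1.13% to 1.2%, all above the other 9, and the border is drawn at the last called gene of the run.

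Genes of unrelated function shared the shift. CR88, a chloroplast HSP90 chaperone (AT2G04030), stood at 210, 203 and 178 TPM in Col-0, 196, 170 and 211 in jazQ, and 181, 180 and 154 in mycT. It stood at 310, 331 and 356 TPM in jazQ mycT, above each of the other 9 libraries. Its departure was 0.99 ± 0.13 (SE; edgeR, adjusted p = 0.00445). AT2G04039, nearer the end of the block and annotated only as a chloroplast protein, stood at 117 to 142 TPM in the 9 other libraries. It stood at 221, 283 and 268 TPM in jazQ mycT, a departure of 0.98 ± 0.09 (adjusted p = 0.000413, edgeR).

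A further 4 block genes are named here after their values were seen, to show the range of functions. AT2G01250, a ribosomal protein of the L30/L7 family, stood at 582 to 652 TPM in the other 9 libraries and at 854, 1000.2 and 986 TPM in jazQ mycT, with a departure of 0.68. RGA1, the DELLA repressor of gibberellin responses (AT2G01570), stood at 45.8 to 55 TPM and at 63.3, 72.2 and 70.3 TPM, with a departure of 0.54. ISPD, an enzyme of the plastid isoprenoid pathway (AT2G02500), had a departure of 0.83, and EXGT-A3, a xyloglucan endotransglucosylase of the cell wall (AT2G01850), one of 0.85. The RGA1 value lay within the quartiles of the block, and the ISPD and EXGT-A3 values lay above them.

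The border was set at the last called gene of the run, so that choice fixes the drop in calls there. That gene, ATDTX1 (AT2G04040), an efflux carrier of the MATE family, had a departure of 1.32 ± 0.24 (adjusted p = 0.0314, edgeR). Its call held in 4 of the 12 fits without a library. The next tested gene, AT2G04050, starts at base 1337180 and had a departure of 0.07 ± 0.41 (adjusted p = 0.972, edgeR). Inside the border, the metal transporter gene ZIP7 had one of -0.09 ± 0.46. Reads of the MATE genes, which are similar, may be split between copies. At the other end, AT2G01008, of unknown function, had the largest called departure of the block, at 2.32 ± 0.37 (adjusted p = 0.0135, edgeR). It stood at 5.61, 4.45 and 3.94 TPM in Col-0, 2.07, 2.39 and 2.05 in jazQ, 3.69, 2.22 and 1.92 in mycT, and 6.80, 6.47 and 4.88 in jazQ mycT. It was thus low in both single mutants, unlike the block median, and the double mutant overlapped Col-0.

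The block also bears on the other calls, since each adjusted p depends on how many genes pass. With the block left out before normalization and testing, 13 positive and 6 negative genes were called, against 25 and 23 outside the block when it was included. All 19 were among the 121. Adjusting the unchanged p-values over the 20674 genes outside the block alone also gave 13 and 6. Leaving out jazQ mycT replicate 2 gave 56 positive and 7 negative calls, leaving out jazQ mycT replicate 3 gave 58 and 6, and leaving out Col-0 replicate 1 gave 61 and 8. The negative count moved by over 1.5 times, to between 6 and 39, without any library other than Col-0 replicate 3 and mycT replicate 3. Positive calls outside the block numbered 15 without Col-0 replicate 1, jazQ mycT replicate 2 or jazQ mycT replicate 3, and 16 without jazQ replicate 2 or mycT replicate 2.

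Outside the block, 7 of the 25 positive genes were genes of glucosinolate synthesis, 6 of them of the methionine-derived (aliphatic) kind. Aliphatic glucosinolates are made by lengthening the side chain of methionine, building the glucosinolate core and modifying the side chain. Over all genes tested, 0.469% were called positive. Of the 10 genes of chain elongation, 4 were called positive and none negative, and all 10 departures were above 0, with a median of 1.69 against -0.00080 over all genes tested. Of 15 tested genes of the aliphatic core and side chain, 2 were called positive, with a median of 0.66, and of 16 genes of the indole and shared steps 1 was called, with a median of 0.24. Since all these genes were chosen with results of these data known, their counts are a description.

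BCAT4, the aminotransferase that opens chain elongation (AT3G19710), stood at 52.6, 67.9 and 37.8 TPM in Col-0, and at 97.4, 114 and 82.0 TPM in jazQ. It fell to 1.81, 2.16 and 2.43 TPM in mycT, and stood at 42.8, 36.4 and 34.3 TPM in jazQ mycT. The log2 change of BCAT4 was thus 0.90 from Col-0 to jazQ and 4.2 from mycT to jazQ mycT. The departure was 3.31 ± 0.33 (SE; edgeR, adjusted p = 0.000702).

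The condensing enzymes of the same cycle behaved in a like manner. MAM1 (AT5G23010) stood at 147, 146 and 87.1 TPM in Col-0, 206, 242 and 185 in jazQ, 6.84, 8.84 and 8.56 in mycT, and 57.4, 55.9 and 52.5 in jazQ mycT. MAM3 (AT5G23020) stood at 34.5, 26.7 and 15.2 TPM in Col-0, 48.5, 46.5 and 50.2 in jazQ, 0.23, 0.31 and 0.18 in mycT, and 7.59, 5.22 and 6.75 in jazQ mycT. For both genes the 4 genotypes did not overlap, and jazQ mycT lay between mycT and Col-0. The departure was 2.06 ± 0.25 for MAM1 (adjusted p = 0.00303) and 3.79 ± 0.53 for MAM3 (adjusted p = 0.00592, edgeR). The MAM3 estimate rests on 7, 9 and 3 counts in the mycT libraries, and reads of these similar neighbouring genes may be split between them. With limma on log2(TPM + 1) the MAM3 departure was 1.62 and its call was lost (adjusted p = 0.0677, and 0.169 with no filter).

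The fourth called gene of the cycle was IPMDH1 (AT5G14200), the dehydrogenase of the elongation step. It stood at 53.8 to 101 TPM in Col-0, 126 to 145 in jazQ, 12.5 to 17.7 in mycT and 56.4 to 64.9 in jazQ mycT, with a departure of 1.34 ± 0.26 (adjusted p = 0.0421, edgeR). Its call held in 1 of 12 refits, each without 1 library, and was lost with the block left out (adjusted p = 0.108, edgeR) and in all 3 limma fits (adjusted p = 0.117 to 0.277). BAT5, the carrier of the chain-elongated keto acids, was not called (1.53 ± 0.40, adjusted p = 0.17, edgeR).

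In the core pathway the 2 called genes were its first steps. CYP79F1 (AT1G16410), which turns elongated methionine into aldoximes, stood at 40.2, 51.5 and 25 TPM in Col-0, 71.2, 87.2 and 56.2 in jazQ, 0.55, 0.49 and 0.51 in mycT, and 14.1, 13.3 and 10.8 in jazQ mycT. CYP83A1 (AT4G13770), which acts next, stood at 111, 107 and 57.7 TPM in Col-0, 116, 120 and 114 in jazQ, 7.02, 9.13 and 7.55 in mycT, and 56.6, 61.7 and 59.9 in jazQ mycT. The double mutant of CYP83A1 overlapped Col-0 only through Col-0 replicate 3. The departure was 3.93 ± 0.48 for CYP79F1 (adjusted p = 0.00303) and 2.57 ± 0.26 for CYP83A1 (adjusted p = 0.000702, edgeR). CYP79F2, the near copy of CYP79F1 with which it may share reads, had a departure of 1.95 ± 0.44 (adjusted p = 0.0951, edgeR).

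**Figure D3:**
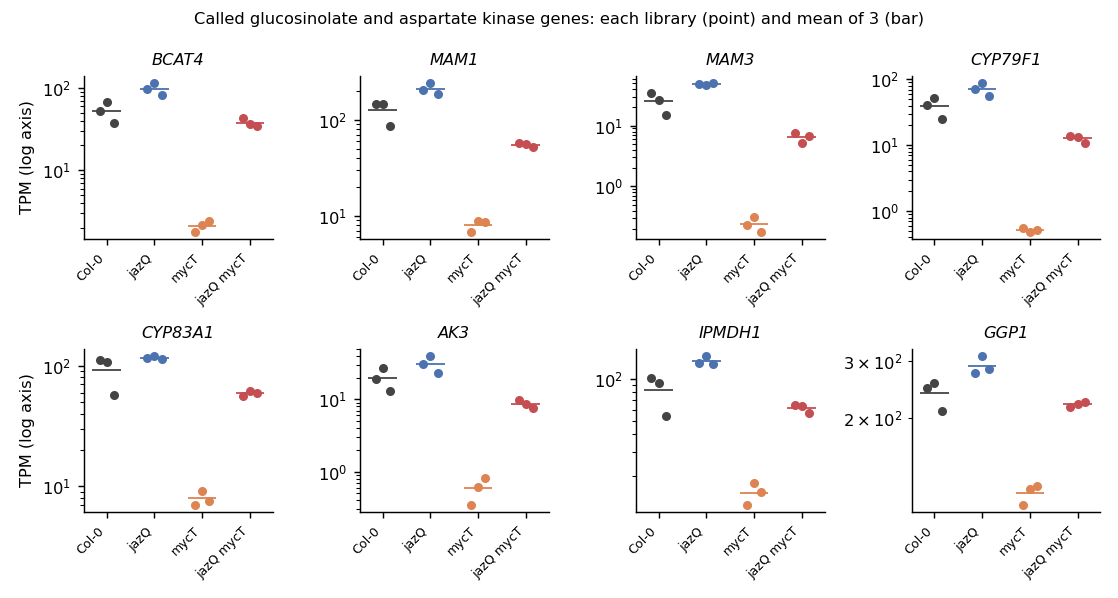
TPM (y axis, log scale, a separate range for each gene) of the 7 called glucosinolate genes and AK3 in each library (points) and as the mean of 3 (bar), by genotype (x axis). In each gene the mycT libraries lie lowest and the jazQ mycT libraries lie above all of them.

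Genes that supply or share the pathway had their means in the same order. AK3, an aspartate kinase at the start of the amino acid pathway that leads to methionine (AT3G02020), stood at 13 to 27.2 TPM in Col-0, 23.0 to 39.5 in jazQ, 0.35 to 0.82 in mycT and 7.52 to 9.73 in jazQ mycT. Its departure was 3.29 ± 0.48 (adjusted p = 0.00828, edgeR), and its call was lost with limma and no filter (adjusted p = 0.133). GGP1 (AT4G30530), the peptidase that acts on glutathione conjugates in both glucosinolate branches, stood at 211 to 256 TPM in Col-0, 275 to 310 in jazQ, 108 to 124 in mycT and 216 to 224 in jazQ mycT. Its departure was 0.64 ± 0.10 (adjusted p = 0.0155, edgeR), and its call was lost in all 3 limma fits (adjusted p = 0.0802 to 0.138). The double mutant lay inside the range of Col-0 for GGP1 and below it for AK3.

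How these genes departed depended on the scale. On the linear scale, with mean TPM added and subtracted in place of log2 values, the sign turned negative for 6 of the 25 positive genes outside the block. These were CYP79F1 (-20.4 TPM, SE 11.8), MAM3 (-16.6 TPM, SE 5.75), BCAT4 (-9.28 TPM, SE 12.9), AK3 (-3.15 TPM, SE 6.35), MAM1 (-37.4 TPM, SE 25.9) and IPMDH1 (-4.11 TPM, SE 16.1). CYP83A1 (26.8 TPM, SE 17.3) and GGP1 (51.6 TPM, SE 18.4) kept a positive sign. All 73 positive genes of the block and all 23 negative genes kept their sign on the linear scale, which was not tested.

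No departure was called for the 6 MYB genes that regulate glucosinolate synthesis. MYB29 stood at 3.96, 9.44 and 4.95 TPM in Col-0, 7.33, 9.80 and 4.83 in jazQ, 1.47, 2.78 and 1.61 in mycT, and 4.61, 4.52 and 4.35 in jazQ mycT, a departure of 0.89 ± 0.48 (adjusted p = 0.51, edgeR). None of 12 sulfate assimilation genes and none of 8 tryptophan genes was called, with medians of 0.34 and -0.0072. When Col-0 replicate 3 was left out, 7 of the 15 aliphatic core and side-chain genes and 6 of the 10 elongation genes were called, and positive calls outside the block numbered 47.

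AT1G52905, an unknown protein, had the largest called departure of all, at 5.12 ± 0.46 (adjusted p = 0.000353, edgeR). It stood at 24.3, 24.2 and 11.8 TPM in Col-0, 17.6, 14.7 and 18.3 in jazQ, and 14.9, 18.3 and 17.2 in jazQ mycT. In mycT it stood at 0.38, 0.40 and 1.13 TPM, from 3, 3 and 5 counts. Only mycT stood apart, and the gene's sign on the linear scale was positive (19.4 TPM, SE 4.41).

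The hexamer CACGTG, the G-box that MYC2 binds, was searched for in the 250 bases before each gene's annotated start, along with the variant CACATG, the GCC-box GCCGCC and the evening element AAATATCT, on both strands. The G-box was in 2 of 25 positive genes outside the block (8.00%), 5 of 73 in the block (6.85%) and 4 of 23 negative genes (17.4%), against 7.29% of 20694 tested genes with such a window. The variant was in 8.00%, 5.48% and 8.70%, against 11.2%. The following windows are shown because CYP83A1, DIN11 and JAZ3 are named genes whose windows hold G-boxes, and BCAT4 is one whose window holds none of the 4 motifs. Sequences are from the TAIR10.1 assembly of RefSeq, 5′ to 3′ on the gene's strand, with matches in capitals.
CYP83A1, chr4:7992430-7992679, minus strand: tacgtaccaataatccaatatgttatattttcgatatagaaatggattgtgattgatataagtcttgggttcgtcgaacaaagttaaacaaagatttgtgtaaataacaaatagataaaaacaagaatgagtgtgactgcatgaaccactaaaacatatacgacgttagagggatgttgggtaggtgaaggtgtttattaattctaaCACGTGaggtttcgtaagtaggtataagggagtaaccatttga
DIN11, chr3:18393497-18393746, plus strand: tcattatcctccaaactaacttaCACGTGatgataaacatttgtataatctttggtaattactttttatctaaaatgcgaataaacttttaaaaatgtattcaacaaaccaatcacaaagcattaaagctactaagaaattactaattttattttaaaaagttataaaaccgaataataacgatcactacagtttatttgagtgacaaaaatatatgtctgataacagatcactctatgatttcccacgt
JAZ3, chr3:6119457-6119706, plus strand: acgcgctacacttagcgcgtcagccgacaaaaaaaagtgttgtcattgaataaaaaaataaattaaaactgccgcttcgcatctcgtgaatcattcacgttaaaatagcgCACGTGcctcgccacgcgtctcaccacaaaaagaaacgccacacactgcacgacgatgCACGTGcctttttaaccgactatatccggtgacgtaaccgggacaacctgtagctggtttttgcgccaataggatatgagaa
BCAT4, chr3:6849583-6849832, minus strand: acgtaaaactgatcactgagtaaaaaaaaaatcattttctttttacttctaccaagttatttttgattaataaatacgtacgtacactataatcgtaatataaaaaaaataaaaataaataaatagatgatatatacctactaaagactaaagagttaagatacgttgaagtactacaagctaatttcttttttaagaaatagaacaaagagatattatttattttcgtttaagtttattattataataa
The G-box began 43 bases before the start in CYP83A1, 227 bases before it in DIN11, and 140 and 82 bases before it in JAZ3. A match of letters does not show that a factor binds there.

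The remaining positive calls fell into groups by the genotype that stood apart. B5 #1 (AT2G46650), a cytochrome b5 isoform, ATGRX4, AT3G28690 and ELF4-L4 were called lower in mycT than in Col-0 (0.847% of genes tested were). All were called higher in jazQ mycT than in mycT (4.05%). The departure of ELF4-L4 was called in 2 of the 12 fits without a library. B5 #1 had means of 54.1, 61.2, 3.27 and 12.8 TPM in Col-0, jazQ, mycT and jazQ mycT. Its departure was 1.76 ± 0.33 (adjusted p = 0.0327, edgeR), called in 2 of the 12 fits without a library. In 3 genes, G6PD3, UBC11 and CYP71B24, jazQ was called lower than Col-0 (1.11% of genes tested were) and jazQ mycT higher than jazQ. The departure of CYP71B24 was called in 4 of the 12 fits without a library. G6PD3 (AT1G24280), a plastid glucose-6-phosphate dehydrogenase of the oxidative pentose phosphate pathway, stood at 15.1, 15.8 and 15.3 TPM in Col-0 and 5.39, 5.64 and 5.77 TPM in jazQ. It stood at 14.8, 14.7 and 15.2 TPM in mycT and 12.7, 13.9 and 13.4 TPM in jazQ mycT. The log2 change of G6PD3 was -1.46 from Col-0 to jazQ and -0.16 from mycT to jazQ mycT. Its departure was 1.3 ± 0.09 (adjusted p = 0.000108, edgeR), with the call present whichever library was left out. UBC11 (AT3G08690), a ubiquitin-conjugating enzyme, stood at 20.6 to 24.6 TPM in jazQ and 33.1 to 49.6 TPM in the other 9 libraries, a departure of 0.90 ± 0.12 (adjusted p = 0.00441, edgeR). B5 #1, UBC11 and the genes of the next paragraph other than DIN11 were chosen after their values were seen.

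In 6 genes the double mutant was called higher than both single mutants. DIN11 (AT3G49620), a 2-oxoglutarate-dependent oxygenase known as a dark-inducible gene, stood at 1.61 to 2.72 TPM in Col-0, 2.79 to 3.29 in jazQ, 1.83 to 2.17 in mycT and 9.54, 8.32 and 14.2 in jazQ mycT. Its departure was 2.09 ± 0.32 (adjusted p = 0.0102, edgeR), and its call was lost with limma and no filter (adjusted p = 0.0676). In 3 other genes both single mutants were called lower than Col-0 (for mycT, 0.847% of genes tested were) and the double mutant was called neither higher nor lower than either. ATARP9, an actin-related protein (AT5G43500), stood at 16.1 to 18.8 TPM in Col-0, 10.9 to 11.6 in jazQ, 9.84 to 12.3 in mycT and 10.5 to 12.0 in jazQ mycT, a departure of 0.72 ± 0.10 (adjusted p = 0.00745, edgeR). AT1G67105, annotated as other RNA, had this order too, at 11.5 to 16.8 TPM in Col-0 and 4.39 to 6.52 TPM in the 9 mutant libraries. Its departure was called in 3 of the 12 fits without a library.

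**Figure D4:**
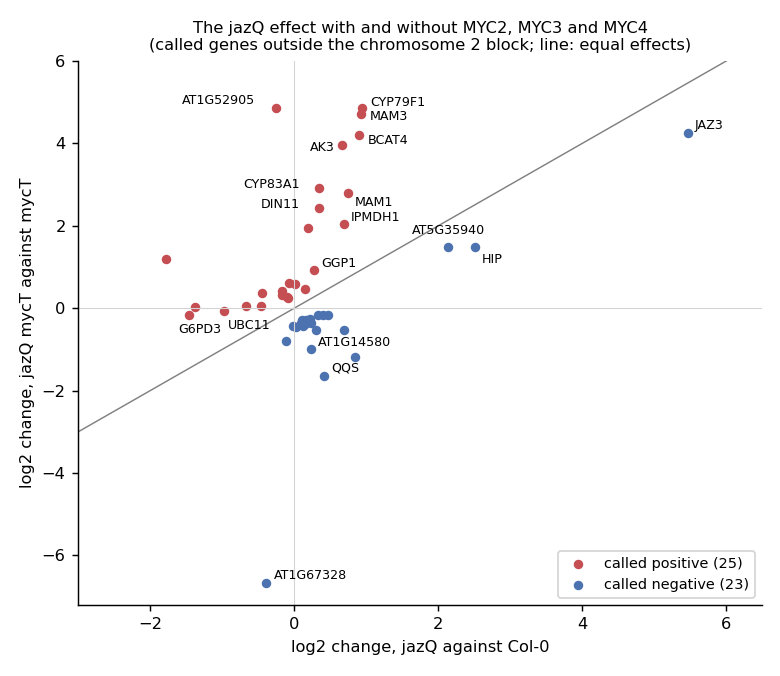
The log2 change of jazQ against Col-0 (x axis) and of jazQ mycT against mycT (y axis) for the 25 positive and 23 negative genes called outside the block, with the line of equal effects. The 2 axes share no library, and the vertical distance from the line is the departure. CYP79F1, at 0.93 and 4.87, lies far above the line and AT1G67328, at -0.39 and -6.67, far below it.

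Negative departures were fewer, and 5 of the 23 were called in each of the 12 fits without a library. The 5 were HIP, JAZ3, AT1G14580, QQS and RHM1. HIP and JAZ3 are neighbours on chromosome 3, on the same strand with 296 bases between them, and JAZ3 is itself disrupted in jazQ. They were the only 2 of the 48 calls outside the block within 100 kb of a mutated gene, against 1.57% of all genes tested.

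JAZ3 (AT3G17860) stood at 11.2, 13.3 and 13.8 TPM in Col-0 and at 635, 541 and 667 TPM in jazQ. It stood at 8.76, 12.8 and 14 TPM in mycT and at 203, 267.3 and 267.2 TPM in jazQ mycT. HIP (AT3G17880), a tetratricopeptide domain-containing thioredoxin, stood at 27.4, 26.2 and 25.1 TPM in Col-0, 149, 144 and 155 in jazQ, 20.2, 23.8 and 24.2 in mycT, and 57.2, 65.6 and 66.1 in jazQ mycT. Both genes were higher in the lines with the jaz3-4 insertion, and in both the double mutant lay between jazQ and the lines without it. The departure was -1.20 ± 0.19 for JAZ3 (adjusted p = 0.0133) and -1.02 ± 0.08 for HIP (adjusted p = 0.000108, edgeR). In all 3 limma fits the JAZ3 call was lost (adjusted p = 0.0577 to 0.147).

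The other genes of the jasmonate pathway showed no called departure. None of 17 jasmonate synthesis genes, 10 tested catabolism genes, 10 signalling partners or 9 tested wound and coronatine markers was called. Their medians were -0.14, -0.28, 0.08 and -0.50. The wound marker VSP2, a vegetative storage protein, stood at 1.39, 4.13 and 2.43 TPM in Col-0, 46.3, 34.9 and 7.95 in jazQ, 2.00, 3.03 and 2.87 in mycT, and 5.17, 5.49 and 5.55 in jazQ mycT. Its departure was -2.52 ± 0.81 (adjusted p = 0.27, edgeR), with a jazQ replicate far below the other 2.

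AT1G14580, a C2H2-like zinc finger protein, stood at 8.65, 9.91 and 8.66 TPM in Col-0, 10.8, 11.6 and 9.50 in jazQ, 8.01, 8.96 and 9.87 in mycT, and 4.18, 4.82 and 4.31 in jazQ mycT. QQS (AT3G30720), an orphan gene known for its effect on starch, stood at 5.0 to 7.68 TPM in Col-0, 7.69 to 8.52 in jazQ, 7.78 to 8.88 in mycT and 2.69, 3.38 and 2.02 in jazQ mycT. In both genes the double mutant alone was low. The departures were -1.23 ± 0.14 (adjusted p = 0.00277) and -2.05 ± 0.30 (adjusted p = 0.00919, edgeR).

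RHM1 (AT1G78570), an enzyme of UDP-rhamnose synthesis for cell wall pectin and flavonol conjugates, stood above every Col-0 library in all 9 mutant libraries. It stood at 75.2 to 83.6 TPM in Col-0, 103 to 113 in jazQ, 106 to 123 in mycT and 90.5 to 108 in jazQ mycT, with a departure of -0.62 ± 0.10 (adjusted p = 0.0126, edgeR). Its call was lost in all 3 limma fits (adjusted p = 0.0802 to 0.133). AT1G67328, annotated as other RNA, had 0, 0 and 4 counts in jazQ mycT and 31 to 178 counts in each other library. Its fitted departure of -6.28 depends on the count added before logs are taken and is no bound (adjusted p = 0.0135, edgeR), and its call was lost with limma on log2(TPM + 1) (adjusted p = 0.0541, and 0.147 with no filter).

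The 6 further negative genes of the rule had smaller departures, between -0.83 and -0.54, that were called in 0 to 9 of the 12 fits with a library left out. None of the 6 was called with the chromosome 2 block left out (edgeR, adjusted p = 0.0538 to 0.136). They were AT1G33080, a MATE efflux protein (-0.83), COPT2, a copper transporter (-0.68), AT5G35940, a mannose-binding lectin (-0.64), LHCB1.5, an antenna protein of photosystem II (-0.58), GATL6, a galacturonosyltransferase (-0.57), and SUC2, the sucrose carrier that loads the phloem (-0.54). SUC2 stood at 64.9 to 68.7 TPM in Col-0, 66.7 to 78.7 in jazQ, 69.1 to 74.2 in mycT and 48.1, 58.1 and 55.2 in jazQ mycT, where all 3 libraries were below the other 9. The calls of SUC2, COPT2, AT5G35940, LHCB1.5 and GATL6 were also lost in all 3 limma fits (adjusted p = 0.0844 to 0.673), that of AT1G33080 with no filter (0.0518), and that of GATL6 with the size factors of DESeq2 in edgeR (0.0512). The replicate block ended the calls of COPT2 (adjusted p = 0.057), AT5G35940 (0.0572) and LHCB1.5 (0.0727) in edgeR.

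LHCB1.5 was the 1 called gene of 37 photosystem and antenna genes, all 37 of which had departures below 0. The median was -0.39, against -0.00080 over all genes tested, and members ranged from -0.75 to -0.10. LHCB1.5 stood at 4207, 4209 and 4370.3 TPM in Col-0, 5041, 5556 and 4466 in jazQ, 4434, 5171 and 4751 in mycT, and 3282, 4107 and 3819 in jazQ mycT. The lowest was jazQ mycT replicate 1, the library with the largest ribosomal RNA share. The list median without this library was -0.38, and over all 12 fits with a library left out it lay between -0.47 and -0.32. The LHCB1.5 call was lost in 11 of these 12 fits. Genes of the LHCB1 group are near copies that may share reads.

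A list may have a large median and no call. In the ethylene-jasmonate defense list the median was 2.90 and none of 7 tested genes was called. The departure was above 0 in 6 of the 7. In the pairwise comparisons, 6 were called higher in jazQ mycT than in jazQ (1.33% of genes tested were) and none lower. Against Col-0, 4 were called higher (2.81%) and 1 lower (2.68%) in jazQ mycT. In jazQ 1 was called lower than in Col-0 (1.11%), and in mycT 2 were called higher (200 of 20888 genes were). The plant defensin gene PDF1.2a stood at 0.59, 0.73 and 7.25 TPM in Col-0, 0.54, 0 and 0.23 in jazQ, 18, 22.2 and 21.8 in mycT, and 10.2, 15.5 and 23.1 in jazQ mycT. Its departure was 2.90 ± 1.33 (adjusted p = 0.436, edgeR), with Col-0 replicate 3 far above the other Col-0 libraries. Defensin genes of this group are near copies of each other.

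**Figure D5:**
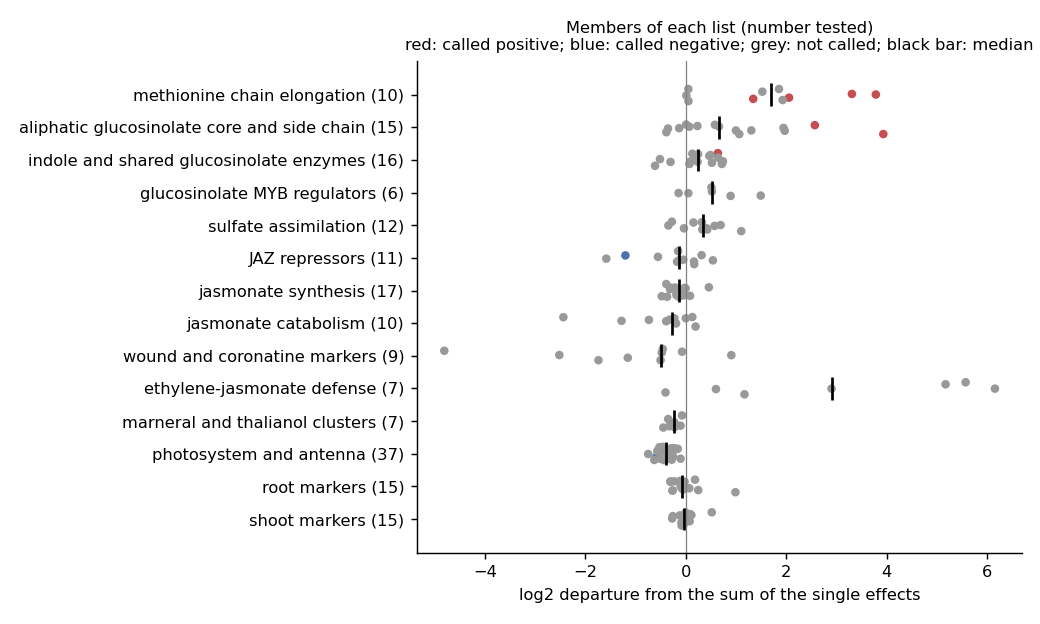
Log2 departure from the sum of the single effects (x axis) for the tested members of 14 gene lists (y axis, number tested in brackets), with called members in red or blue, others in grey and the median as a black bar. The elongation genes have a median of 1.69 with 4 called, and the photosystem and antenna genes a median of -0.39 with 1 called.

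Groups with neither calls nor large medians were the majority. No member was called among 10 ER body proteins (median -0.011), 7 genes of the marneral and thalianol clusters (-0.23), 14 anthocyanin and flavonoid genes (-0.025), 12 tested myrosinases and specifier proteins (-0.19), 13 clock genes (-0.061), 10 phosphate starvation genes (-0.19), 15 iron genes (0.20) and 12 salicylic acid genes (0.093). For the marneral and thalianol clusters, whose genes make triterpenes, the median change was 1.90 for jazQ against Col-0 and 1.57 for jazQ mycT against mycT. Departures mostly on 1 side were not particular to the photosystem list. They were above 0 for 0 of 7 cluster genes and 2 of 12 myrosinases and specifier proteins. Of 56 genes described as lipid-transfer or 2S albumin proteins, 8 were above 0 (median -0.35), with none called. A missed threshold does not show that the effects add up: with 3 libraries per genotype the standard error of a departure covers 4 genotypes, and 2365 genes had an unadjusted p under 0.05.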

How the data were processed

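The data were mRNA sequencing of whole seedlings with single-end 50-base reads, 3 libraries for each of 4 genotypes. The authors deposited RSEM (version 1.2.11, per the labels) expected counts per gene, rounded to whole numbers, and TPM values, which are scaled to gene length and to a fixed total per library, on the TAIR10 annotation. No depth remains in TPM; precision follows from the count totals given above. Both tables map to the 12 samples by their header rows, and 0 columns belong to other samples.

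Expected counts were normalized by TMM, filtered by filterByExpr and tested with edgeR 4.0.16 (quasi-likelihood) in 1 fit of all 12 libraries, with Benjamini-Hochberg adjustment over 20888 genes and a threshold of 0.05. Departures and changes are log2 values from this fit. The SE of a log2 departure was worked back from its test, as the absolute log2 value over the square root of the F statistic. Levels are TPM, which compare between genes per length. Alternatives were DESeq2 1.42.0, limma 3.58.1 (limma-trend on log2 TPM with pseudocounts of 1 and 0.1), other filters and scalings, a replicate block, and each library left out. The scripts were tested on simulated data. Named genes were, for each sign, the 12 called genes of largest departure whose mean reached 5 TPM in some genotype, genes called in all 12 fits with a library left out first, plus called members of the lists, the mutated genes and some uncalled members for contrast. Members and lists were chosen with earlier results of these data known. Positions are from RefSeq TAIR10.1, which matched 32835 of 33602 identifiers. The 3 samples of a genotype were independent RNA samples of pooled seedlings.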

Additional observations from a re-analysis of the deposited data

Results flagged for a closer look

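The log2 change from mycT to jazQ mycT differed from that from Col-0 to jazQ, by a test of the difference itself (edgeR), for 98 genes in the positive and 23 in the negative direction, and 73 of the 98 lie in the chromosome 2 block, which stood high in the jazQ mycT line alone. The block on chromosome 2 had a median departure of 0.55, which was not tested. Among the genes named above the log2 difference was 5.12 for AT1G52905, 3.93 for CYP79F1, 3.79 for MAM3, 3.31 for BCAT4, 3.29 for AK3, 2.57 for CYP83A1, 2.32 for AT2G01008, 2.09 for DIN11, 2.06 for MAM1, 1.34 for IPMDH1, 1.3 for G6PD3, 0.99 for CR88, 0.98 for AT2G04039 and 0.64 for GGP1. In the negative direction it was -0.54 for SUC2, -0.57 for GATL6, -0.58 for LHCB1.5, -0.62 for RHM1, -0.64 for AT5G35940, -0.68 for COPT2, -0.83 for AT1G33080, -1.02 for HIP, -1.20 for JAZ3, -1.23 for AT1G14580, -2.05 for QQS and -6.28 for AT1G67328.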

How the results depend on the processing

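Positive calls (98), positive calls outside the chromosome 2 block (25) and negative calls (23) moved by more than 1.5 times under several settings, and the cause was not tested beyond the construction of each. DESeq2 gave 57 positive calls outside the block and 65 negative calls. By list, it called 7 photosystem and antenna genes, 4 of the aliphatic core and side chain, 2 of the indole and shared steps and 2 JAZ genes. The main fit called 1, 2, 1 and 1 of these. The limma fits called no photosystem, indole or JAZ member, and 2 elongation genes with a pseudocount of 1. With limma on log2(TPM + 1) the positive, outside-block and negative counts were 21, 10 and 4, with a pseudocount of 0.1 they were 25, 13 and 7, and with no filter 20, 11 and 4. An adjusted p under 0.01 gave 39, 10 and 3, and an absolute log2 departure of at least 1 gave 16, 13 and 7. Leaving out the block, a choice made after seeing the data, gave 13 positive and 6 negative calls, as did adjusting the p-values over the genes outside it, also chosen after seeing the data. With 1 library left out the counts ranged from 56 to 116, from 15 to 47 and from 6 to 39. Of the called genes, 36 of 73 in the block, 12 of 25 positive genes outside it and 5 of 23 negative genes were called in all 12 of these fits. On the linear TPM scale the sign reversed for CYP79F1 (-20.4), MAM3 (-16.6), BCAT4 (-9.28), AK3 (-3.15), MAM1 (-37.4) and IPMDH1 (-4.11). The numbers do not pair the samples: correlations of deviations between same-numbered libraries ranged from -0.19 to 0.31, and passed 0.1 in all 3 pairs for Col-0 and mycT alone. A fit with the replicate block called 93 positive (25 outside the chromosome 2 block) and 18 negative genes, and the calls of COPT2, AT5G35940 and LHCB1.5 were lost in it. Low genes are limited by depth, since few counts lie behind the mycT levels of MAM3 and AT1G52905.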
